A study of Drosophila melanogaster with 12 samples.

Results

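A small set of genes was transcribed in the parental S2 line and close to silent in at least 1 *upSET* mutant line. The set was chosen by level. A gene was taken as on in S2 when it had a sense CPM (counts per 1000000 counts of the library) of at least 4 in both S2 libraries, and as lost in a line when it had under 1 CPM in both libraries of that line, with genes on chromosome 4 and in the heterochromatic (Het) scaffolds left out. Of 15998 genes in the files, 6812 were on in S2 by this rule and 10 of those were lost in a mutant line. All 10 were lost in G3, 4 in B2 (*Dbx*, *CG7180*, *CG5568*, and *CG18586*), and 1 in A7 (*Dbx*). These counts are 0.147% of the on genes for G3, 0.0587% for B2, and 0.0147% for A7. The values of S2, G3, A7, and B2 chose the genes, so their levels are a description and no test is attached to them.

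S2 is an embryo-derived male *Drosophila* cell line with a polyploid genome and hemocyte-like character. The parental line, S2-DRSC, is wild type at *upSET*. The mutant lines were made from it by CRISPR/Cas-9. G3 carries a 67 bp deletion that takes away 5′ untranslated sequence, the start codon, and 10 bp of coding sequence. A7 carries 2 deletions of 7 bp near the start codon, with a frameshift soon after it. B2 carries a 1 bp deletion with a frameshift after 367 amino acids. Each mutant line grew from a single sorted cell, so the *upSET* mutation and the history of that cell cannot be told apart in any comparison with S2. Nascent RNA bound to chromatin was sequenced with a strand-specific kit, in 2 libraries per line and 8 libraries in all. Nothing in the labels says that the 2 libraries of a line came from separate cultures, so the p-values measure the spread between these libraries. Every comparison uses the same S2 libraries. In bulk RNA, fewer cells that transcribe a gene and less RNA per cell cannot be told apart.

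UpSET belongs to the same protein family as yeast Set3 and mammalian MLL5. These proteins carry a SET domain and a PHD finger, and they act with histone deacetylases at chromatin. Nascent RNA reports transcription itself more directly than the store of messenger RNA in a cell, so a gene with no nascent reads is one at which little transcription was going on at the time of harvest. The guide targets are shown here because G3 and A7, which differ most in the number of genes lost, were cut at the same target. The target sequences run 5′ to 3′ with the PAM in capitals.
Guide 1 (G3 and A7): aaccgagtcgtgactggacaTGG
Guide 7 (B2): acagcagatcagcctaccgcAGG

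*upSET* itself (*CG9007*, chromosome 3L, 13995223 to 14013251 in dm3) was transcribed in every library. It had 563 and 598 CPM in S2, 452 and 437 in G3, 642 and 670 in B2, and 739 and 645 in A7. The lesions are small and lie inside the transcribed gene, so this level does not check the mutation.

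Library sizes lay between 4738785 and 10902304 sense counts, and 3 counts correspond to between 0.275 and 0.633 CPM. S2 replicate 1 stood apart at low levels. In this library 291 genes had at least 4 CPM while having under 1 CPM in S2 replicate 2, and 0 genes showed the reverse. The same count was 43 in G3, 53 in B2, and 17 in A7. The 291 genes were long, with a median of 29346 bp, and had a median of 54 antisense counts in S2 replicate 1 against 3 in S2 replicate 2. The requirement of 4 CPM in both S2 libraries therefore rested mostly on replicate 2. With S2 replicate 2 left out, the rule found 112 genes instead of 10, and without G3 replicate 1 it found 17. Of the 21 hemocyte markers, 15 were on in S2, 15 in G3, 14 in B2, and 15 in A7, and none was among the 10 genes. Their summed level was between 19313 and 19722 CPM in S2, between 16586 and 17390 in G3, between 18440 and 20665 in B2, and between 21568 and 22598 in A7. The hemocyte factor *srp* was at 1183 and 1049 CPM in S2, whereas *He* had 0 counts in both S2 libraries. Most of that sum was *ush*, and the sum hides changes of single markers. *Cg25C*, a collagen gene, had 9.24 and 8.74 CPM in S2, 123 and 402 in G3, 68.0 and 125 in B2, and 158 and 233 in A7. *Pxn*, the peroxidasin gene, had 836 and 834 in S2, 395 and 642 in G3, 479 and 648 in B2, and 222 and 252 in A7. These shifts were thus not particular to G3. Single genes also moved in other marker lists. *roX1*, a noncoding RNA of the dosage compensation complex and a marker of male cells, had 15.7 and 14.3 CPM in S2, 3768 and 3956 in G3, 14.6 and 48.5 in B2, and 307 and 155 in A7, whereas the other 2 male markers summed to 143 and 215 CPM in S2 and 110 and 130 in G3. Among 7 germline markers, *AGO3*, a Piwi-family gene, had 153 and 65.3 CPM in S2, 733 and 555 in G3, 370 and 369 in B2, and 1502 and 1258 in A7, whereas the other 6 summed to between 22.1 and 39.0 CPM in all libraries. The part of these markers in the losses was not tested.

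**Figure D1:**
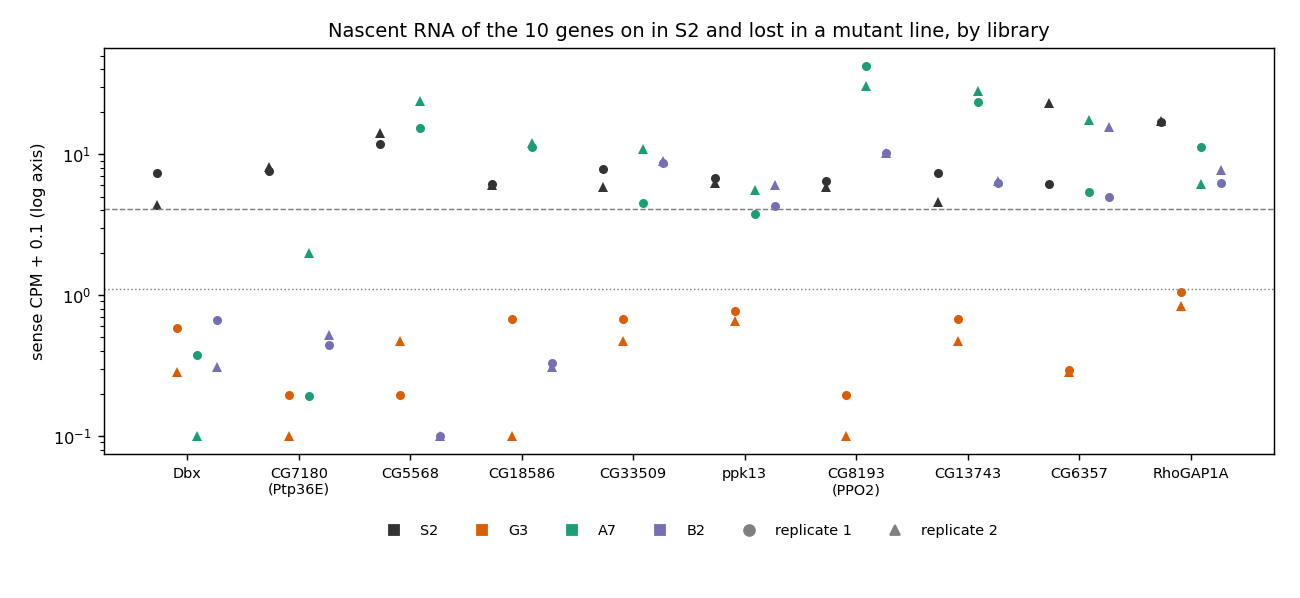
Sense CPM plus 0.1 on a log axis for each of the 10 genes, with 1 point per library, coloured by line and shaped by replicate. The dashed line marks 4 CPM and the dotted line 1 CPM, each plus 0.1. All G3 points lie below the dotted line, whereas A7 points lie below it for both libraries at *Dbx* alone.

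The 10 genes were weakly transcribed in S2. Their mean S2 level had a median of 6.58 CPM and ranged from 5.74 to 16.9, whereas the median over all on genes was 31.3. As a share of the on genes, 31.4% were at or below the highest of the 10. In single S2 libraries the genes had between 23 and 139 counts, and in the G3 libraries between 0 and 10 counts. Summed over the 10 genes, sense CPM was 83.0 and 94.3 in S2, 4.32 and 2.76 in G3, 41.1 and 55.1 in B2, and 116 and 135 in A7. Thus the summed level was lower in G3 and B2 than in S2 with no overlap of libraries, and higher in A7. The rule itself sets the S2 and G3 levels, and in B2 those of the 4 genes lost there. In A7 the highest levels were those of the neighbours *CG8193* (41.8 and 30.3 CPM) and *CG13743* (23.3 and 27.8). Of the 9 genes not lost in A7, 4 had both A7 libraries above both S2 libraries and 3 had both below. The pooled S2 level divided by the pooled G3 level lay between 10.3 and 121 over the 10 genes, with a median of 17.5. Intervals on such ratios below are exact (Clopper-Pearson) 95% intervals and cover counting error only. With single libraries left out, the ratio to G3 ranged from 34.2 to 132 for *CG5568*, from 31.7 to 121 for *CG6357*, and from 11.3 to 32.9 for *Dbx*, whose ratio to B2 ranged from 9.64 to 28.7.

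*Dbx*, which encodes a homeobox transcription factor, was the single gene lost in all 3 lines. It lies on chromosome 3L from 1921276 to 1933538 (dm3). It had 7.20 and 4.28 CPM in the S2 libraries, 0.480 and 0.184 in G3, 0.570 and 0.211 in B2, and 0.275 and 0 in A7. By the rule, both S2 libraries were above all 6 mutant libraries. The pooled S2 level was 16.0 times that of G3 (interval 7.05 to 44.8), 31.7 times that of A7 (10.5 to 157), and 13.6 times that of B2 (6.01 to 38.2). *Dbx* also passed the S2 threshold by the smallest margin, with 23 counts in S2 replicate 2. Its antisense counts were 29 in S2 replicate 1 and 1 in S2 replicate 2, against 15 and 0 in G3, 1 and 2 in B2, and 9 and 1 in A7. Scaled to the antisense libraries, the pooled antisense level was 19.1 CPM in S2, 8.75 in G3, 2.07 in B2, and 5.73 in A7, with most of the S2 reads in replicate 1. The nearby gene *Mfap1*, which lies 7497 bp away, was between 14.2 and 21.7 CPM in all 8 libraries. It had 18.8 and 19.5 CPM in S2 and 16.2 and 15.1 in G3, so that G3 was slightly lower with no overlap.

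*CG7180*, now named *Ptp36E*, encodes a receptor-type protein tyrosine phosphatase, and was lost in G3 and B2. It lies on 2L from 18180996 to 18184630. It had 7.44 and 8.0 CPM in S2, 0.0959 and 0 in G3, and 0.342 and 0.422 in B2. In A7 the 2 libraries differed, with 0.0917 CPM in replicate 1 and 1.88 in replicate 2, so A7 missed the rule through 1 library. The pooled S2 level was 121 times that of G3 (21.3 to 4841), which rests on 1 count in G3, and 20.7 times that of B2 (8.60 to 65.1).

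*CG7180* lies inside the 98040 bp extent of *CG42750*, and the files do not list strands, so reads shared by the 2 genes cannot be separated. *CG42750* was low in the same lines. It had 110 and 112 CPM in S2, 7.29 and 1.11 in G3, and 5.35 and 10.8 in B2. In A7 it had 5.87 CPM in replicate 1 and 80.1 in replicate 2, and the libraries of A7 thus disagreed at the host gene in the same direction as at *CG7180*. *CG31802*, another gene within the host, had 2.04 and 3.53 CPM in S2, 0.0959 and 0 in G3, 0.228 and 0 in B2, and 0.275 and 1.88 in A7, which is the same order of libraries within A7. These 2 genes were chosen after their values were seen. The receptor phosphatase genes were also chosen afterwards. All 7 that were listed were on in S2 and *CG7180* alone was lost, and *Lar*, the highest of them, was between 918 and 1211 CPM in all 8 libraries.

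*CG5568* and *CG18586* were lost in G3 and B2 together. They are neighbours on 3L, from 5864546 to 5866618 and from 5866588 to 5868566, and their extents overlap by 31 bp. *CG5568* had 11.8 and 14.0 CPM in S2, 0.0959 and 0.368 in G3, 15.2 and 23.8 in A7, and 0 in both B2 libraries. *CG18586* had 6.0 and 5.95 CPM in S2, 0.576 and 0 in G3, 0.228 and 0.211 in B2, and 11.2 and 11.9 in A7. At both genes the 2 A7 libraries were above both S2 libraries while G3 and B2 were below them. For *CG5568* the pooled S2 level was 66.7 times that of G3 (22.4 to 327), on 3 counts in G3. Against B2, where it had no counts, S2 was at least 56.9-fold higher if 3 counts over both B2 libraries are taken as the floor. The exact interval, which does not use that floor, starts lower, at 45.8. For *CG18586* the ratio was 15.8 against G3 (6.96 to 44.3) and 27.0 against B2 (8.90 to 133).

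At this locus the sense reads were lost while antisense reads remained. Antisense counts of *CG5568* were 65 and 67 in S2, 59 and 44 in G3, 38 and 55 in B2, and 50 and 40 in A7. Those of *CG18586* were 37 and 68 in S2, 58 and 65 in G3, 42 and 58 in B2, and 56 and 43 in A7. Scaled to the antisense libraries, *CG5568* had a pooled antisense level of 84.2 CPM in S2, 60.1 in G3, and 64.2 in B2, and *CG18586* had 67.0, 71.8, and 69.1. The next listed gene, *CG13287*, 6837 bp away, had 45 and 56 antisense counts in S2 and 80 and 46 in G3. When sense and antisense counts were summed, the rule again found 10 genes, of which 6 were among the original 10.

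The other 6 genes were lost in G3 alone, and 4 of them lay in 2 pairs of neighbours. *CG33509* and *ppk13* are 283 bp apart on 2L, at 21084605 to 21086506 and 21086790 to 21088751. *ppk13* belongs to the pickpocket family of amiloride-sensitive (DEG/ENaC) sodium channels. *CG33509* had 7.68 and 5.77 CPM in S2, 0.576 and 0.368 in G3, 8.54 and 8.86 in B2, and 4.40 and 10.9 in A7. *ppk13* had 6.72 and 6.14 CPM in S2, 0.671 and 0.553 in G3, 4.21 and 5.91 in B2, and 3.67 and 5.43 in A7. G3 was far below the other 3 lines at both genes, and the pooled S2 level was 13.7 times that of G3 at *CG33509* (6.69 to 32.7) and 10.3 times at *ppk13* (5.34 to 22.2). At *ppk13* both libraries of A7 and of B2 were also below both S2 libraries. Of 17 DEG/ENaC genes that were listed, nearly all by a *ppk* symbol, *ppk13* alone was on in S2. Genes of the family that the files name by a CG number were not in that list, so the count is not one of the whole family.

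The pair belonged to a longer run of 4 adjacent genes, *CG33511*, *CG33510*, *CG33509*, and *ppk13*, which spans 7625 bp from 21081127 to 21088751. *CG33511* and *CG33510* fell just short of the S2 threshold, with 3.84 and 4.46 CPM and 4.44 and 3.53 CPM in S2. In G3 they had 0.576 and 0 CPM and 0.480 and 0 CPM. In contrast to the 3L locus, both strands were lost here. Summed over the 4 genes, sense counts were 189 and 107 in S2, 24 and 5 in G3, 188 and 119 in B2, and 136 and 114 in A7. Antisense counts were more numerous, with 745 and 492 in S2, 7 and 1 in G3, 770 and 469 in B2, and 695 and 409 in A7. The pooled antisense level in S2 was 169 times that in G3 (85.5 to 392), 1.25 times that in A7 (1.15 to 1.35), and 0.922 times that in B2 (0.851 to 0.998). *ppk13* had 165 and 99 antisense counts in S2 and 0 in both G3 libraries. Beyond *ppk13* no such loss was seen. There, *CG14397* had 66 and 43 antisense counts in S2 and 98 and 39 in G3, and *CG12050* had 123 and 116 sense CPM in S2 and 103 and 112 in G3. Farther out, 15812 bp from the pair, *Nhe2* had 118 and 185 CPM in S2 and 32.7 and 111 in G3. On the other side, *tadr* was too low to compare, with 1.68 and 0.372 CPM in S2 and 0.288 and 0 in G3. Past it, 22995 bp from the pair, *betaInt-nu* had 20.4 and 6.51 CPM in S2, 4.51 and 2.40 in G3, and 26.1 and 2.74 in B2. Thus levels lower in G3 than in S2 were not confined to the 4 genes. Of all on genes, 40.3% had both G3 libraries below both S2 libraries. *Nhe2* had 97.3 and 145 CPM in A7, so G3 overlapped A7 there, as it overlapped B2 at *betaInt-nu*.

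**Figure D2:**
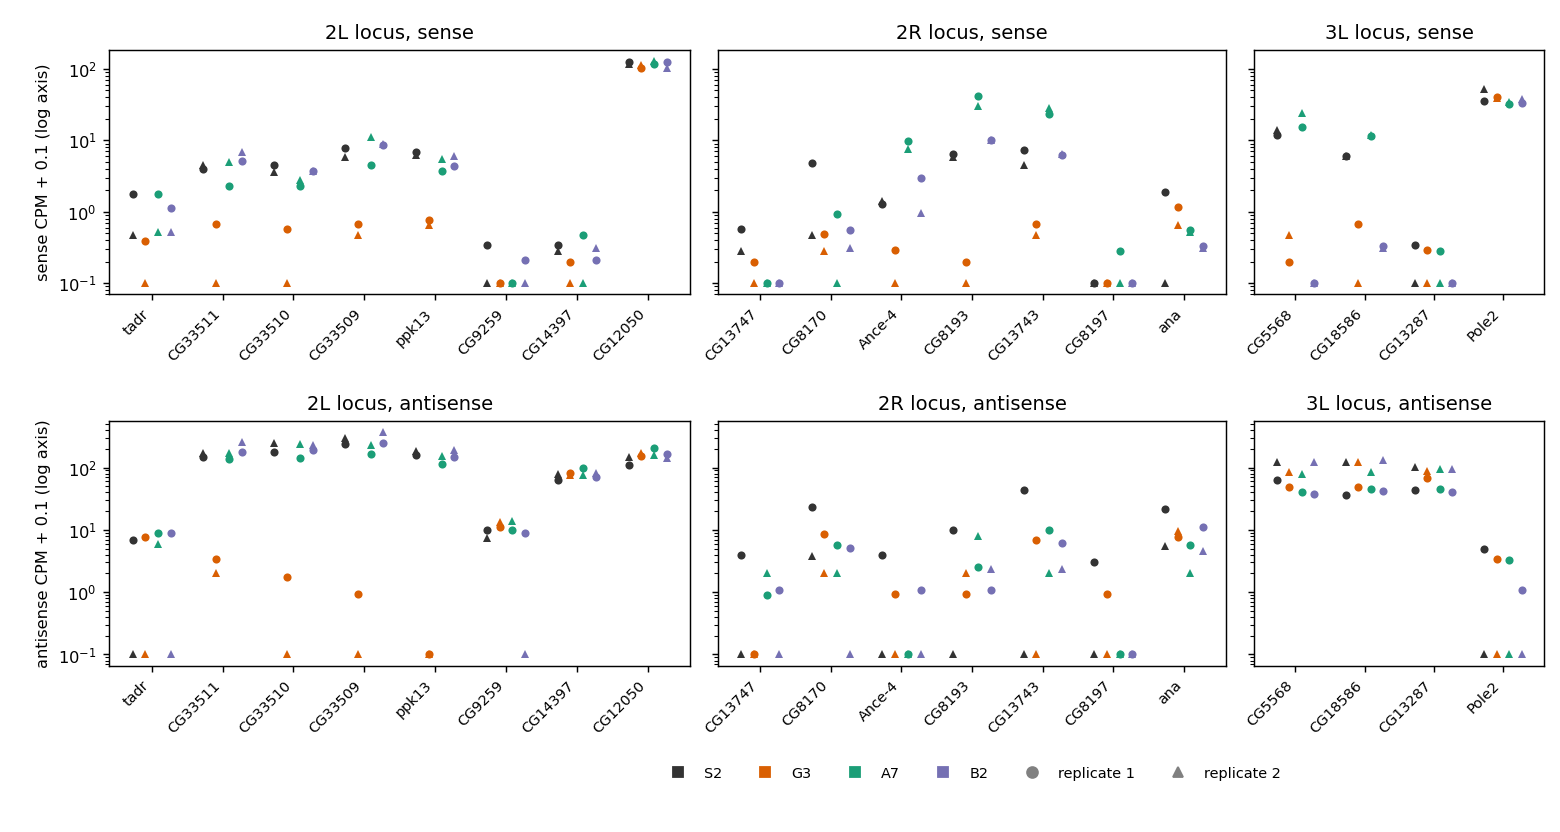
Sense CPM (upper panels) and antisense CPM (lower panels), each plus 0.1 on a log axis, for genes in chromosomal order at 3 loci, with 1 point per library coloured by line and shaped by replicate. At the 2L locus G3 lies below the other lines on both strands of *CG33511* to *ppk13*. At the 2R locus G3 is lowest and A7 highest on the sense strand of *Ance-4*, *CG8193*, and *CG13743*. At *CG5568* and *CG18586* of the 3L locus, G3 and B2 are low on the sense strand while antisense reads of all lines overlap.

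*CG8193*, now named *PPO2*, encodes prophenoloxidase 2, a melanization enzyme that crystal cells, a class of hemocytes, store in crystals. It lies on 2R from 4929766 to 4932213, and *CG13743* starts 141 bp further on and runs from 4932355 to 4947418. *CG8193* had 6.36 and 5.77 CPM in S2, 0.0959 and 0 in G3, 10.0 and 10.1 in B2, and 41.8 and 30.3 in A7. *CG13743* had 7.20 and 4.46 CPM in S2, 0.576 and 0.368 in G3, 6.15 and 6.33 in B2, and 23.3 and 27.8 in A7. The lines thus took the order A7, B2, S2, and G3 at *CG8193* with no overlap of libraries, whereas B2 lay between the 2 S2 libraries at *CG13743*. The pooled S2 level of *CG8193* was 97.1 times that of G3 (17.0 to 3882), on 1 count in G3, and the pooled A7 level was 6.25 times that of S2 (4.97 to 7.95). For *CG13743* the ratios were 12.1 (5.89 to 29) and 4.02 (3.17 to 5.16).

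The gene on the other side, *Ance-4*, a member of the angiotensin-converting enzyme family that lies 135 bp from *CG8193*, was under the S2 threshold and was named after its values were seen. It had 1.2 and 1.3 CPM in S2, 0.192 and 0 in G3, 2.85 and 0.844 in B2, and 9.63 and 7.51 in A7. Its libraries were lowest in G3 and highest in A7, as at *CG8193*. Of the other prophenoloxidase genes, *CG42640* (now *PPO3*) had 33.7 and 21.0 CPM in S2 and 16.5 and 13.1 in G3, and *proPO-A1* (now *PPO1*) was at or below 0.24 CPM in all libraries. The crystal-cell factor *lz* had 2.04 and 0.186 CPM in S2, 1.06 and 0.553 in G3, 0.456 and 0.633 in B2, and 2.20 and 0.209 in A7, so that the lines overlapped. *CG13743* had 44 antisense counts in S2 replicate 1 and 0 in S2 replicate 2, the difference described above for that library.

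*CG6357* encodes a peptidase of the papain family and lies on 2R from 9727508 to 9729188. It had 6.0 and 22.9 CPM in S2, 0.192 and 0.184 in G3, 4.90 and 15.4 in B2, and 5.32 and 17.3 in A7. Replicate 2 was well above replicate 1 in S2, A7, and B2, and these 3 lines overlapped, with G3 below all of them. The pooled S2 level was 66.7 times that of G3 (22.4 to 327), on 3 counts in G3. *CG6357* lies inside the extent of *synaptogyrin*, whose antisense counts were 65 and 123 in S2 and 10 and 2 in G3, beside sense counts of 50 and 123 and of 2 and 1 for *CG6357*. The same reads can be in both numbers. The sense level of *synaptogyrin*, a synaptic vesicle protein gene, was 7.80 and 5.02 CPM in S2 and 2.69 and 2.21 in G3. Of 10 papain-family genes, 5 were on in S2 and 1 was lost, and the most abundant, *Cp1* (cathepsin L), had 388 and 593 CPM in S2 and 155 and 371 in G3. Near *CG6357* lie *CG6347* and *CG6337*, which were not on in S2. *CG6347*, 638 bp away and also overlapping *synaptogyrin*, had 54 and 44 antisense counts in S2, 7 and 1 in G3, 35 and 26 in B2, and 53 and 44 in A7. *CG6337* had 1.32 and 1.67 CPM in S2 and 0.288 and 0 in G3.

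*RhoGAP1A* had the highest S2 level of the 10 and is the single X-linked one, at 23829 to 35433. It had 16.7 and 17.1 CPM in S2, 0.959 and 0.737 in G3, 6.15 and 7.60 in B2, and 11.1 and 6.05 in A7. Both libraries of each mutant line were below both S2 libraries. The pooled S2 level was 19.1 times that of G3 (11.1 to 35.5), 1.76 times that of A7 (1.43 to 2.18), and 2.53 times that of B2 (1.98 to 3.27). It was also the gene closest to the threshold of loss. The roles of *RhoGAP1A*, *CG33509*, *CG13743*, *CG5568*, and *CG18586* are not described here.

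The 10 genes occupied 7 loci when genes within 20 kb were joined, and also 7 with 5 kb or 100 kb. Chromosomes 2L, 2R, and 3L held 3 each, X held 1, and 3R, with 24.9% of the on genes, held 0. All 10 are protein-coding in the RefSeq annotation. Their median length was 2260.5 bp, with a range from 1681 to 15064, beside 2874.5 bp for all on genes. Of the 10, 6 overlapped another listed gene, as did 53.3% of the on genes, and 7 carried only a CG number in the files, as did 43.8% of the on genes. *Dbx* lies 12.1 Mb and *CG5568* 8.13 Mb from *upSET* on the same arm.

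Non-members within 10 kb of a lost gene were examined for how far the loss reached. In G3 there were 17 such genes, of which 14 had a log2 fold change below 0 and 7 below -1, with a median of -0.74 beside -0.06 for all 9612 genes tested. The 7 were *CG42750* (-4.47), *CG33510* (-3.61), *CG33511* (-3.40), *Ance-4* (-3.09), *CG6337* (-2.88), *tadr* (-2.40), and *synaptogyrin* (-1.27). The median of these 17 was -1.11 without S2 replicate 2, -1.05 without G3 replicate 1, -0.42 in a fit of S2 and G3 alone, and -0.43 with the replicate number as a block. Within 50 kb the median of 72 genes was -0.12. In B2 the median of 4 neighbours was -1.40, but -0.34 without S2 replicate 1 and -0.22 without A7 replicate 1, and in A7 that of 3 was -0.23. The 4 in B2 were *CG42750* (-3.74), which contains *CG7180*, *CG5687* (-2.585), *mu2* (-0.22), and *Mfap1* (0.16). *CG5687* had only 1.68 and 0.186 CPM in S2. No neighbour was called changed in edgeR's quasi-likelihood test in any line.

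Genes that were not lost in a line did not all hold their S2 level. In A7, 9 of the 10 were not lost. Both A7 libraries were above both S2 libraries at 4 of them (*CG8193*, *CG13743*, *CG5568*, and *CG18586*), and below at 3 (*CG7180*, *RhoGAP1A*, and *ppk13*). Of all on genes, 12.4% were above and 27.6% below S2 in A7 in this way. In B2, 6 of the 10 were not lost, of which *CG33509* and *CG8193* were above and *RhoGAP1A* and *ppk13* below, beside 6.81% and 26.6% of the on genes. In G3 all 10 were below by the rule, beside 40.3% of the on genes below and 10.1% above.

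The values just inside and outside the thresholds were as follows. *RhoGAP1A* at 0.959 CPM in G3 and *Dbx* at 4.28 CPM in S2 were the closest inside. Just outside for G3 were *CG43446*, with at least 5.21 CPM in S2 and up to 1.06 in G3, and the X-linked gene model *mgn00215*. *mgn00215* had 96.6 and 89.5 CPM in S2, 1.06 and 0.184 in G3, 113 and 103 in B2, and 2.02 and 1.25 in A7, and so was far above the 10 genes in S2 and missed the rule by 1 G3 library. For A7 the nearest outside were *CG43446* (up to 1.83 CPM) and *CG7180* (1.88) by the loss threshold, and *CG14857* and *Ntf-2r*, at 2.40 and 2.28 CPM in their lower S2 library, by the other. For B2 they were *CG5418* (1.71) and *Ptp52F* (1.90), and *CG9629* (2.64) and *mgn00563* (2.42).

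**Figure D3:**
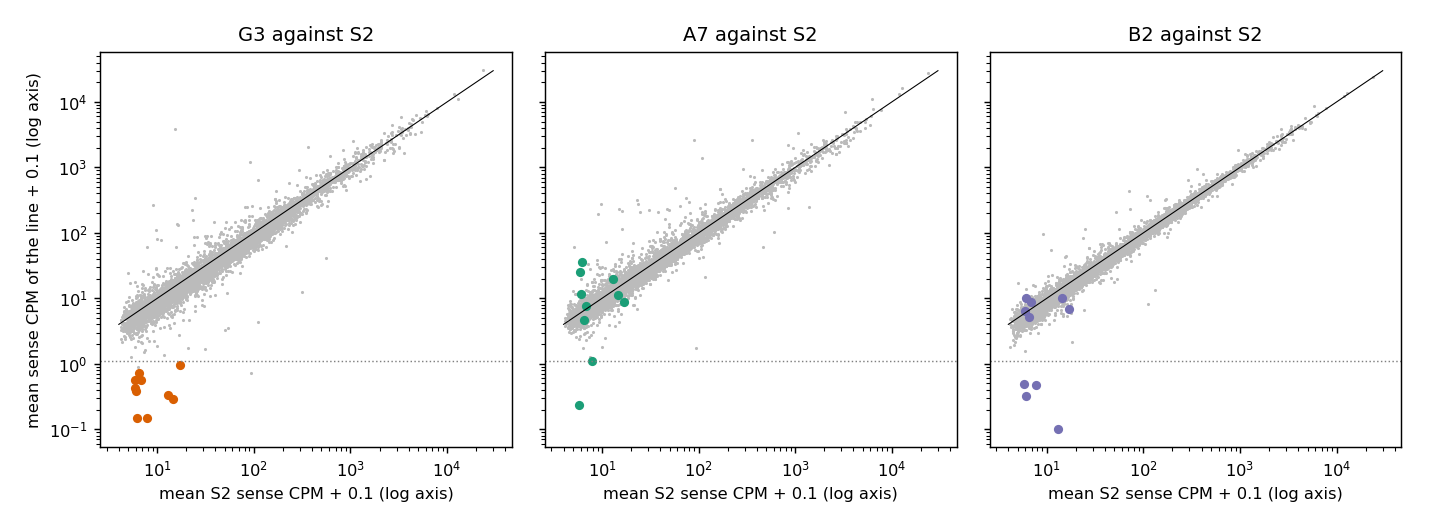
Mean sense CPM plus 0.1 in a mutant line against that in S2 for the 6812 genes on in S2, both on log axes, with the 10 genes as large coloured points, equality as a solid line, and 1 CPM plus 0.1 as a dotted line. The 10 genes lie in the lowest part of the S2 range, from 5.74 to 16.9 CPM, and 10, 1, and 4 of them were under 1 CPM in both libraries of G3, A7, and B2.

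The same rule was applied to each ordered pair of lines as a description. From S2 the counts were 10 in G3, 4 in B2, and 1 in A7. In the reverse direction, 4 genes on in G3, 11 on in A7, and 1 on in B2 were under the loss threshold in S2. A7 held 16 genes that were lost in G3, of which 7 were among the 10, and B2 held 7, of which 6 were among the 10. A further 16 genes on in A7 were lost in B2, 2 of them among the 10. Between G3 and B2, 3 genes on in G3 were lost in B2, and 0 genes on in G3 or B2 were lost in A7.

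**Figure D4:**
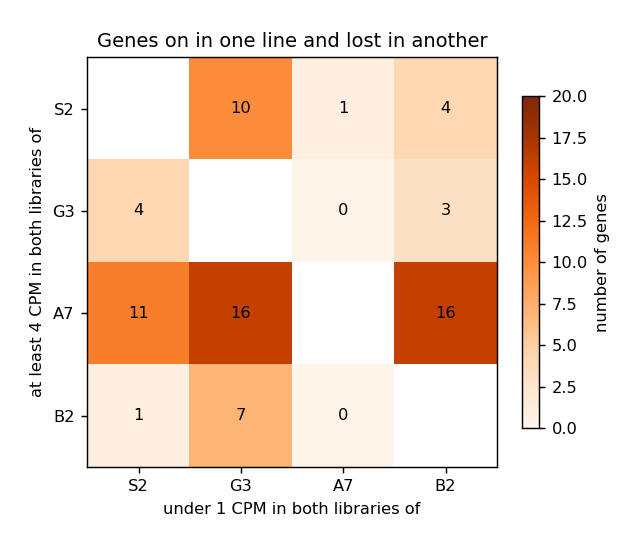
Number of genes with at least 4 CPM in both libraries of the line in the row and under 1 CPM in both libraries of the line in the column, as a heat map with the count printed in each cell. Counts range from 0 to 16, and the row of A7 holds the 2 cells of 16.

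Across all 9612 genes tested with edgeR's quasi-likelihood test at an adjusted p under 0.05, 58 were called changed in G3 (0.603%; 0.343% higher), 36 in A7 (0.375%; 0.354% higher), and 1, which was higher, in B2 (0.0104%). Of the 10 genes lost in G3, 6 were called lower, beside 0.26% of all genes tested. Of those lost in A7 and B2, 0 of 1 and 0 of 4 were called, beside 0.0208% and 0%, and 2 of the 10 were called higher in A7. The count of 6 in G3 fell to 1 without either G3 library or in a fit of S2 and G3 alone, and to 3 without either S2 library. With the replicate number as a block, 10 of 10 in G3, 1 of 1 in A7, and 2 of 4 in B2 were called lower, and DESeq2 gave the same counts. Since the same contrasts chose the genes, nothing is read from these counts. With single libraries left out, the calls ranged from 17 to 46 in G3, 12 to 28 in A7, and 0 to 2 in B2, with 17 when either G3 library was missing and 12 in A7 without S2 replicate 2 or A7 replicate 1. In B2, 312 of the 9612 genes had an unadjusted p under 0.05 in the quasi-likelihood test. That share is below the 0.05 that uniform p-values would give. DESeq2 called 38 in B2. Of the 10 lists of gene families, which hold 2122 genes with 799 tested, the set of 10 touched 1, the ion channels, through *ppk13*. The lists are incomplete. *Dbx* was not on the homeobox list and *CG8193* was not on the immunity list, so this count does not describe what the 10 genes do. The lists had 1 gene called higher and 3 called lower in G3, 3 higher and 0 lower in A7, and 0 in B2. *ppk13* is among the 3 called lower, and since the same contrast chose it, nothing is read from its call. These calls depended on the fit. The 4 in G3 became 1 without either G3 library or S2 replicate 2, 2 without S2 replicate 1 or A7 replicate 2, 0 in a fit of S2 and G3 alone, and 51 with the block. The 3 in A7 became 0 without A7 replicate 1, 1 without A7 replicate 2 or S2 replicate 2, 0 in a fit of S2 and A7 alone, and 33 with the block. *boi*, a Hedgehog co-receptor gene, was higher in G3 and A7 (log2 fold change 3.83 ± 0.47 and 4.87 ± 0.49, SE), and *bnl* and *fz2*, which encode an FGF ligand and a Wnt receptor, in A7 (2.25 ± 0.27 and 1.34 ± 0.18). Besides *ppk13*, *Ir41a* (-4.47 ± 0.54), an ionotropic receptor gene, and the noncoding *CR43723* (-1.84 ± 0.19) were lower in G3. For the genes named here other than *ppk13*, adjusted p-values in edgeR's quasi-likelihood test lay between 0.0129 and 0.0478. *Ir41a* still had 20.0 and 5.16 CPM in G3, after 291 and 336 in S2, and so was not lost by the rule.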

How the data were processed

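The authors trimmed adaptors, aligned reads to dm3 with Bowtie (0.12.7 in the submitters' notes), kept uniquely aligned reads, and deposited unnormalized sense and antisense counts per gene for each library; those notes also list bedtools, and which program counted the reads is not given in the sources used here. Strands of genes are not listed in the files. The columns labelled r3 were taken as replicate 2. ChIP samples were not analysed here. CPM was computed as counts over the sum of the library's counts on that strand (Python 3.11.15, pandas 2.3.3, scipy 1.17.1).

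Sense counts of all 8 libraries were fitted with edgeR 4.0.16 in R 4.3.3 (TMM, quasi-likelihood test, Benjamini-Hochberg), for genes with at least 1 CPM in at least 2 libraries. The SE of a log2 fold change was derived as its absolute value over the square root of the quasi-likelihood F, and is not a standard error reported by the model. DESeq2 1.42.0, other scalings, filters, thresholds, and gaps, each library left out, and a replicate block were alternatives. Current gene symbols came from RefSeq (Release 6), whose coordinates were not used.

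The members and lists were chosen with earlier results of these data known. Genes named were those lost in more than 1 line, the 8 with the highest S2 CPM among those lost in each line, those on a list, those nearest each threshold, and *upSET*; neighbours, host genes, and families were chosen after their values were seen. Other lists gave these results: neuron, glia, muscle, ovarian soma, epithelium, and fat body markers held 4, 2, 2, 1, 4, and 1 genes on in S2, and *Sxl* (female) and the 3 male markers were on. Homeobox factors, detoxification enzymes, chemosensory genes, cuticle and Osiris genes, serpins and serine proteases, immunity effectors, adhesion and guidance genes, signalling genes, and noncoding RNA genes held 0 of the 10 genes. *Dbx* was not on the homeobox list, nor *CG8193* on that of immunity effectors.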

Additional observations from a re-analysis of the deposited data

Results flagged for a closer look

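At 5 of the 10 genes, both libraries of the line that lost the gene were below both S2 libraries while both libraries of another line were above them. The rule itself sets the lower side. Of all on genes, 12.4% had both A7 libraries above both S2 libraries, and 6.81% had both B2 libraries above. The difference between lines was not tested, since these contrasts chose the genes. In A7 the mean level was 36.0 CPM at *CG8193*, 25.5 at *CG13743*, 19.5 at *CG5568*, and 11.5 at *CG18586*. In B2 it was 10.1 CPM at *CG8193* and 8.70 at *CG33509*. At *CG33509* the pooled B2 level was 1.25 times that of S2, with a counting interval of 0.945 to 1.65 that includes equality.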

How the results depend on the processing

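The number of genes lost in at least 1 line (10) was 19 with an S2 threshold of 2 CPM (4 in A7, 8 in B2), 2 with 8 CPM (2 in G3, 0 in A7, 1 in B2; *CG5568* and *RhoGAP1A*), 6 with a loss threshold of 0.5 CPM (5 in G3), and 18 with 2 CPM (16 in G3, 3 in A7). TMM scaling gave the same 10. With each library left out, the number lost in at least 1 line was 10 to 112, being 112 without S2 replicate 2 and 17 without G3 replicate 1. With an S2 library or a library of the line itself left out, it was 10 to 26 for G3, 2 to 38 for A7, and 4 to 87 for B2. Libraries of the other mutant lines do not enter the count of a line, which stayed at 1 in A7 without them. Calls in G3, A7, and B2 (58, 36, and 1) became 171, 156, and 32 with no filter, 15, 12, and 0 with the libraries of both lines alone, 206, 168, and 38 with DESeq2, and 0 in B2 with library size alone. They ranged from 17 to 46, 12 to 28, and 0 to 2 with each library left out, with 17 in G3 without either G3 library and 12 in A7 without S2 replicate 2 or A7 replicate 1. With 2 numbers per line, and no label that says what a number marks, the pairing was not used in the main fit. Deviations of same-numbered libraries correlated at 0.50 to 0.63 in all pairs of lines, and with a replicate block the calls were 562, 353, and 41, and 10 of 10, 1 of 1, and 2 of 4 lost genes were called lower. DESeq2 called 10, 1, and 2 of them. The neighbours' median in G3 (-0.74) was -0.12 within 50 kb, -0.42 with both lines alone, -0.43 with the replicate block, and -1.11 to -0.70 with each library left out. In B2 (-1.40) it was -0.12 within 50 kb, -0.22 with a filter at 4 CPM, -0.22 with both lines alone, and -1.71 to -0.22 with each library left out. The cause of these changes was not tested. Over 66 values, the 14 ratios of S2 to a line lay between 8.85 and 132, a range that the choice of genes limits. With 0 to 10 counts per G3 library, the depth limits how low a lost gene can be said to be.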
